A study of Mus musculus with 112 samples.

Results

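Proteins of the cytosolic ribosome are encoded by genes named Rpl for the large subunit and Rps for the small one. Members were all genes whose symbol is Rpl or Rps, digits, and then at most the letters a, l, x, y and further digits. The Rps6ka kinases and pseudogenes with -ps symbols thus stayed out. This gave 57 of the 19938 genes measured, 35 with large subunit names and 22 with small subunit names, each represented by its brightest probe set with 1 gene symbol. The rule uses names only and no measured value. RefSeq lists 81 protein-coding mouse genes that fit the rule, of which 56 are members and 18 others lay only on probe sets with several symbols and were not analysed here. The remaining member, Rps4l, is a transcribed pseudogene in RefSeq.

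Gene expression was measured in epididymal white adipose tissue (WAT), the fat pad beside the testis, of 112 male mice, each on an Affymetrix Gene 1.0 ST array for the mouse. Mice of 7 strains (129S1/SvImJ, C57BL/6J, BALB/cJ, CBA/J, C3H/HeJ, B6C3F1/J and DBA/2J) received either caloric restriction (CR) or the control ration from 8 to 22 weeks of age, with 8 mice in each of the 14 groups. The labels spell BALB/cJ as Balbc/J and C57BL/6J as C57BL6/J. B6C3F1/J is the F1 hybrid of a C57BL/6 and a C3H parent and the other strains are inbred. All mice were housed singly, ate a diet based on AIN93M and were fasted overnight before collection. Rations were not the same in every strain. BALB/cJ mice received more food in both arms, and the CR ration of C57BL/6J and 129S1/SvImJ mice was cut once more midway. Values are log2 signals, so that a difference of 1 is a doubling, and p-values come from limma.

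The cytosolic ribosome joins a small subunit, which reads the mRNA, to a large subunit, which forms the peptide bond. Its proteins are made in equal numbers, and cells hold their mRNAs at high and rather even levels in nearly every tissue. Most of these mRNAs start with a run of pyrimidines, and through it the nutrient-sensing kinase mTOR controls how much of the mRNA is translated, with less effect on how much mRNA there is. An array measures mRNA abundance and not this step.

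Sequences around the transcription start were read from RefSeq promoters (GRCm38.p6, 250 bases before and 50 after the start) for the 46 members with an entry. They are shown because the pyrimidine run is the sequence feature these mRNAs are known for and the naming rule did not use it. In 37 of the 46 members (80.4%) a run of at least 8 C or T bases on the gene's strand lay within 50 bases of a start. The share was 39.3% of all 27025 genes in the table. A run anywhere in this window counted, such as one that begins 41 bases after the start (Rpl10) or 42 before it (Rpl27). Whether the mRNA itself begins with the run was not tested. The bases CCGGAAG, the core of sites for ETS family factors, were found on either strand in 17 members (37.0%) and in 9.93% of all genes, and a match does not show that a factor binds. Of members with an entry, 10 of 12 that were higher on CR across strains had such a run, 4 of 7 that were lower and 23 of 27 that passed in neither direction. Below are 30 bases on the gene's strand, with the longest run near the start in capitals, of 3 members that rose on CR (Rpl7a, Rpl34, Rpl38), 2 that fell (Rpl28, Rpl37a) and 1 that did not pass the test (Rps10).
Rpl7a, chr2:26910788-26910817, plus strand: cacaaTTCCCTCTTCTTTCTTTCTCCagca
Rpl34, chr3:130730330-130730359, minus strand: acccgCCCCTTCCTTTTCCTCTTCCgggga
Rpl38, chr11:114668568-114668597, plus strand: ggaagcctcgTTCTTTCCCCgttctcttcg
Rpl28, chr7:4792952-4792981, plus strand: gcctctcgtgTCTCTCTTTCCgtctccggc
Rpl37a, chr1:72711274-72711303, plus strand: cgcattgcgTCCCTTCCTCTTCggacttgg
Rps10, chr17:27635227-27635256, minus strand: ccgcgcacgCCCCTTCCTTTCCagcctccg

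Array medians lay between 6.72 and 6.86. The fat pad markers were present in all groups, with a mean adipocyte marker signal between 11.65 and 12.85 on CR arrays and between 12.56 and 12.87 on control arrays. Macrophage markers were lower on CR in 19 of 20 genes (22.0% of all genes, median CR minus control of the markers -0.72). Their mean signal ranged from 7.77 to 9.55 in CR mice and from 8.22 to 10.503 in control mice. Fewer macrophages and less RNA per macrophage cannot be told apart in bulk tissue. On 8 arrays, 6 CR and 2 control, epididymis markers were more than 1 log2 unit above the median of the strain. The largest excess was on mouse 5 of the CBA/J CR group (5.89) and mouse 2 of the C57BL/6J CR group (5.85). These 2 mice also had the highest mean member levels of the 112, 10.30 and 10.32. In all, 22 arrays stood apart on principal components or on these markers, 16 CR and 6 control, and 11 of them were DBA/2J. Principal components were taken after each group mean was subtracted, extreme arrays included. An extreme mouse thus also shifts the other arrays of its group, and some of the 22 may stand apart for that alone. Mouse 1 of the C57BL/6J CR group was among the 22, with epididymis markers 0.43 below the strain median. When the arrays of each strain were processed is not given in the sources used here, so strain and batch cannot be told apart.

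Across the 7 strains CR moved the ribosome protein mRNAs little and in both directions. At an adjusted p under 0.05 over all genes, 14 of the 57 members were higher on CR (24.6%, beside 21.9% of all genes), 9 were lower (15.8%, beside 22.0% of all genes) and 34 passed in neither direction. Rps19 rose most, with a log2 difference of 0.19, and Rpl12 fell most, by 0.13. The median difference was 0.0047 over the members and 0.0076 over all genes. The sizes of the 23 called differences lay between 0.045 and 0.19 with a median of 0.083, and the median size over all called genes was 0.16. No member reached a difference of 0.2 in either direction, against 17.0% of all genes. The 95% interval lay within 0.2 of zero for 54 members and within 0.3 for all 57. The interval bound farthest from zero was 0.245, for Rps19.

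**Figure D1:**
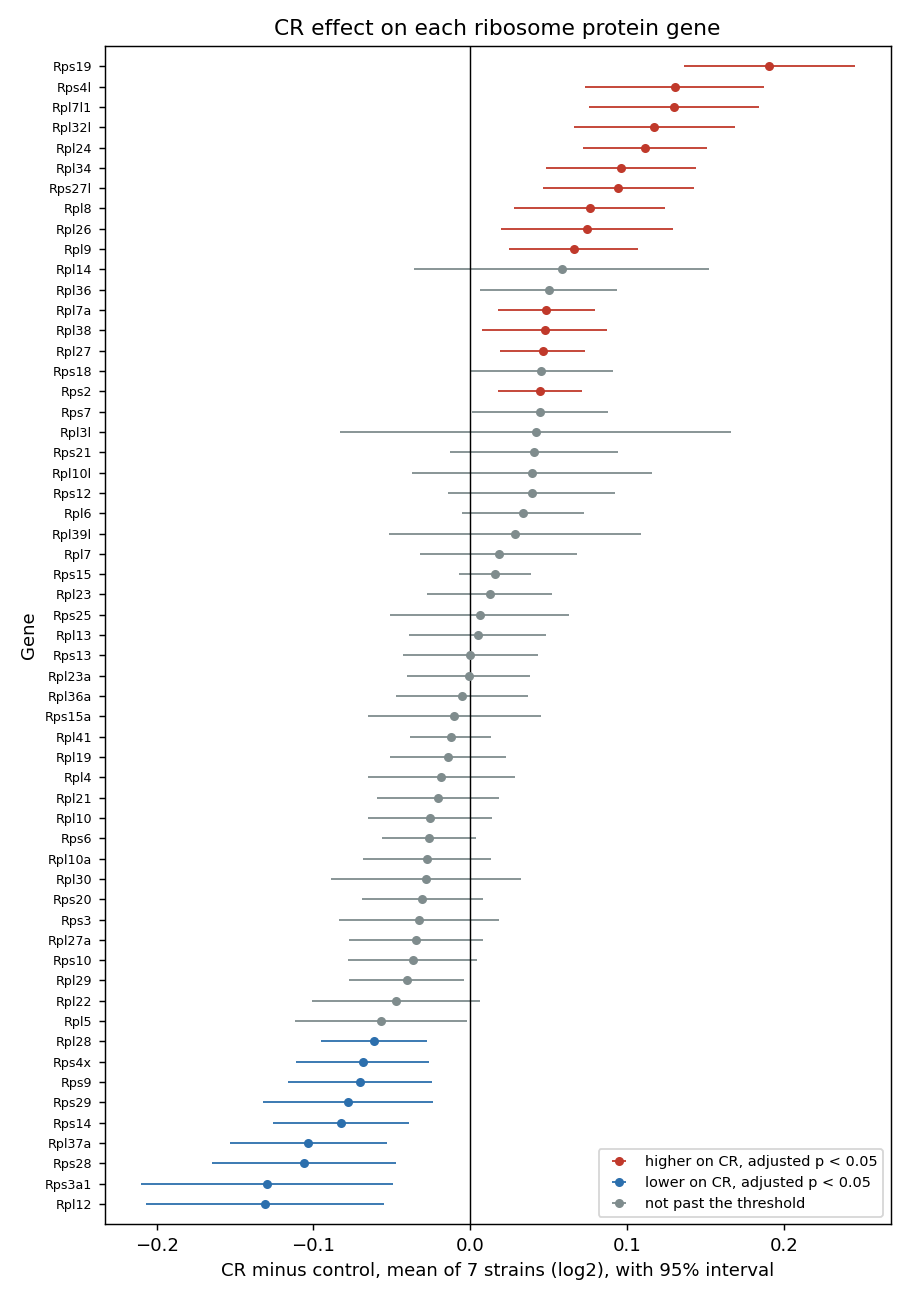
Difference between CR and control (log2, x axis) for each of the 57 genes, as the mean over 7 strains with its 95% interval. The 14 genes that were higher (red) run up to 0.19 for Rps19, the 9 that were lower (blue) run down to -0.13 for Rpl12, and the 34 others (grey) did not pass the test.

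The split between directions depended on which arrays and which scaling were used. Without the 8 arrays rich in epididymis markers, 13 members were higher (22.9% of all genes) and 18 were lower (23.0% of all genes). All 9 members that were lower with every array stayed lower, and Rpl10, Rpl10a, Rpl22, Rpl27a, Rpl29, Rpl5, Rps10, Rps20 and Rps3 joined them. Rpl26 no longer passed (adjusted p = 0.052). Without the 22 arrays that stood apart, 8 members were higher (14.04%, beside 21.0% of all genes) and 20 lower (35.1%, beside 21.3%). Some of those 22 may stand apart only through an extreme mouse of their group, as described above. With quantile normalization 9 were higher (15.8%, beside 24.3% of all genes) and 16 lower (28.1%, beside 21.8%). Of the 16 members with the largest increases and decreases, 12 kept their call in every setting tried, and the exceptions were Rpl8, Rps29, Rps9 and Rps4x.

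Among the members that rose, Rps19 had the largest difference and the smallest p. Rps19 is a small subunit protein that is needed to process the rRNA of that subunit, and loss of 1 copy of it in humans causes Diamond-Blackfan anaemia. Its mean signal was 9.30 in CR mice and 9.11 in control mice, a difference of 0.19 (SE 0.028, 1.14-fold, adjusted p = 2.8e-09), positive in 7 of 7 strains. In B6C3F1/J it ran from 8.90 over a median of 9.23 to 9.57 in CR mice and from 8.83 over 8.92 to 9.11 in control mice, and 6 of 8 CR mice lay above every control mouse. In CBA/J it ran from 9.29 over 9.40 to 9.45 in CR mice and from 8.94 over 9.07 to 9.47 in control mice. In C3H/HeJ it ran from 8.998 over 9.08 to 9.32 in CR mice and from 8.77 over 8.96 to 9.07 in control mice. The groups overlapped in all 3, in CBA/J through 1 control mouse that was above all CR mice. These were the strains in which Rps19 passed p under 0.01, with differences of 0.33 (adjusted p = 0.0052), 0.27 (adjusted p = 0.0073) and 0.18 (adjusted p = 0.047), each from limma within the strain. The smallest difference was in C57BL/6J, 0.05 (SE 0.085, adjusted p = 0.71). The difference of the Rps19 effect between strains did not pass (adjusted p = 0.31). The highest Rps19 signal of all, 9.91, was in mouse 3 of the DBA/2J CR group, whose B cell markers stood 3.28 above the strain median.

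Rpl24, a large subunit protein whose mutation gives the mouse Belly spot and tail phenotype, rose by 0.11 (SE 0.020, adjusted p = 1.2e-06) with a positive difference in 7 of 7 strains. Its groups were separate in 1 strain. In B6C3F1/J the signal ran from 9.997 over 10.09 to 10.28 in CR mice and from 9.69 over 9.85 to 9.95 in control mice, a difference of 0.27 (SE 0.047, adjusted p = 0.00022). In DBA/2J it ran from 9.65 over 9.85 to 9.94 in CR mice and from 9.66 over 9.79 to 10.04 in control mice, with a difference of 0.02 (SE 0.058). All 3 Rpl24 probe sets were higher on CR. Rpl34, another large subunit protein, rose by 0.096 (SE 0.024, adjusted p = 0.00044), again with 7 of 7 strains positive, and Rpl8, which lies near the peptide bond centre, rose by 0.076 (SE 0.024, adjusted p = 0.0064) with 6 of 7. Rpl8 had an adjusted p of 0.30 without the arrays that stood apart. Besides the paralogs given next, the other members that rose were Rpl26, Rpl9, Rpl7a, Rpl38, Rpl27 and Rps2, by 0.045 to 0.074.

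Members whose symbols mark a paralog (an l, x or y after the number) were 8 of the 57, and 4 of them rose while 1 fell. Of all genes, 21.9% rose and 22.0% fell, and whether paralogs differ from the other members was not tested. Among the 4 is Rps4l, a transcribed pseudogene in RefSeq. Rps4l rose by 0.13 (SE 0.029, adjusted p = 6.9e-05), while its relative Rps4x, the X-linked small subunit protein, fell by 0.069 (SE 0.021, adjusted p = 0.0053). Rpl7l1 rose by 0.13 (SE 0.027, adjusted p = 3.0e-05), and Rpl7 itself had a difference of 0.018 (adjusted p = 0.61). Rpl32l rose by 0.12 (SE 0.026, adjusted p = 6.5e-05) and Rps27l, which p53 induces, rose by 0.094 (SE 0.024, adjusted p = 0.00063). The parents Rpl3, Rpl32, Rpl39 and Rps27 were not analysed here, since their probe sets carried several symbols. The other 3 were dim. Rpl10l and Rpl39l, known from testis, had differences of 0.039 (adjusted p = 0.45) and 0.029 (adjusted p = 0.62), and Rpl3l, known from heart and skeletal muscle, had one of 0.042 (adjusted p = 0.64). Rpl10, the parent of Rpl10l, had a difference of -0.026 (adjusted p = 0.32).

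The paralogs passed in few strains. In C3H/HeJ the Rpl7l1 signal ran from 9.72 over 9.86 to 10.16 in CR mice and from 9.48 over 9.62 to 9.78 in control mice, and 7 of 8 CR mice lay above every control mouse. In DBA/2J the Rpl32l signal ran from 7.59 over 7.65 to 7.87 in CR mice and from 7.35 over 7.42 to 7.58 in control mice, with no overlap. Ribosome protein genes have many processed copies in the genome, and a probe set cannot be assigned with certainty to the gene it is named for.

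Of the members that fell, Rpl12, which sits at the base of the ribosome stalk, had the largest difference. It fell by 0.13 (SE 0.038, adjusted p = 0.0028), with 7 of 7 strains negative, at a dim signal of 6.29 in CR mice and 6.42 in control mice. Its groups overlapped in every strain, with the largest difference in 129S1/SvImJ, where it ran from 5.72 over 6.18 to 6.54 in CR mice and from 6.09 over 6.56 to 6.79 in control mice. Rps3a1, a small subunit protein, fell by 0.13 (SE 0.041, adjusted p = 0.0053) with 6 of 7 strains negative. Rps28, near the mRNA exit of the small subunit, fell by 0.11 (SE 0.030, adjusted p = 0.0016), and Rpl37a, a zinc-binding large subunit protein, by 0.10 (SE 0.025, adjusted p = 0.00031). Rps14, also at the mRNA path of the small subunit, fell by 0.083 (SE 0.022, adjusted p = 0.00091) with 7 of 7 strains negative. Rps29, another zinc-binding protein, fell by 0.078 (SE 0.027, adjusted p = 0.014), Rps9 by 0.070 (SE 0.023, adjusted p = 0.0084) and Rpl28 by 0.061 (SE 0.017, adjusted p = 0.0017). The calls of Rps29, Rps9 and Rps4x were lost when 129S1/SvImJ was left out (adjusted p = 0.065, 0.098 and 0.079). That of Rps29 was also lost without C3H/HeJ (adjusted p = 0.066) and with each array centred on its median (adjusted p = 0.052), and that of Rps4x without B6C3F1/J (adjusted p = 0.068).

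By subunit, 10 of 35 large subunit members rose and 3 fell, and 4 of 22 small subunit members rose and 6 fell. Of all genes, 21.9% rose and 22.0% fell, and the difference between the subunits was not tested. The median difference was 0.012 for the large subunit and -0.0050 for the small one. The 3 brightest members were Rps6, the target of the S6 kinases below mTOR, Rpl10 and Rps15, and none of them passed the test, with differences of -0.026 (95% interval -0.06 to 0.00), -0.026 (-0.07 to 0.01) and 0.016 (-0.01 to 0.04). The dimmest were Rpl39l, Rpl3l and Rpl10l.

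**Figure D2:**
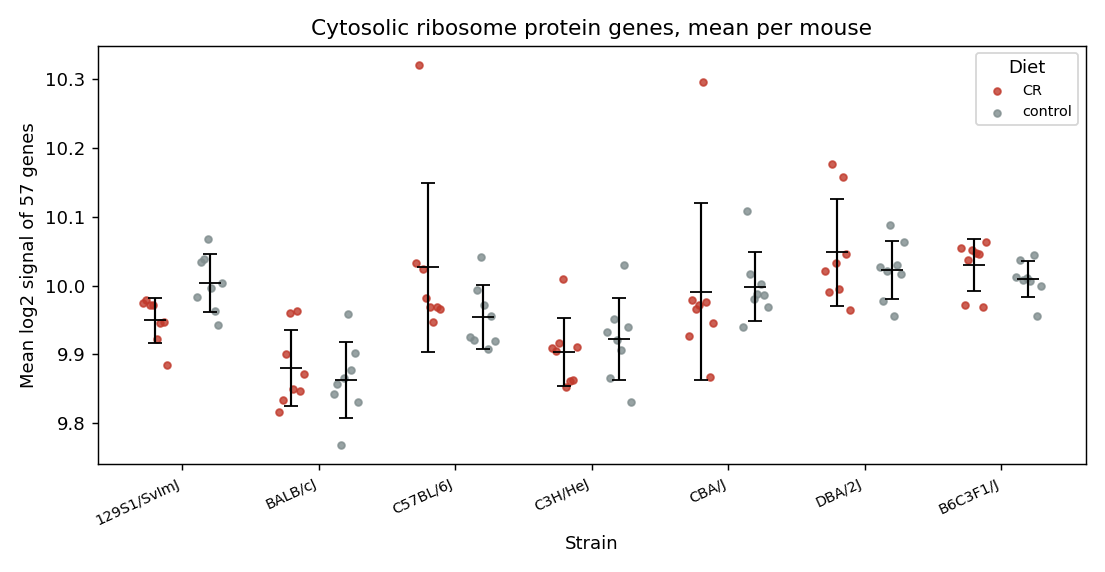
Mean log2 signal of the 57 genes (y axis) in each mouse, by strain and diet (CR red, control grey), with group mean and SD (n = 8). The diets overlap in all 7 strains, and the 2 highest mice, at 10.32 in C57BL/6J and 10.30 in CBA/J, are CR mice with high epididymis markers.

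Averaged over the 57 members, the mice differed little by diet. The mean member level was 9.95 ± 0.03 in CR mice and 10.004 ± 0.04 in control mice in 129S1/SvImJ (SD, n = 8 each here and below). It was 10.03 ± 0.12 in CR mice and 9.95 ± 0.05 in control mice in C57BL/6J. In the other 5 strains the means of the diets differed by at most 0.03, in either direction. Without the CR mice with high epididymis markers the difference was 0.02 in C57BL/6J, against 0.07 with all mice, and -0.06 in CBA/J, against -0.01 with all mice (6 CR and 8 control mice left in each). The groups overlapped in every strain. In 129S1/SvImJ 2 of 8 CR mice lay below every control mouse, and in B6C3F1/J 5 of 8 CR mice lay above every control mouse. The C57BL/6J spread on CR rests on mouse 2. Its epididymis marker excess is given above, and its part in the result was not tested.

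Within single strains with all arrays used, 129S1/SvImJ held the most members that were lower. At an unadjusted p under 0.01, 8 members were lower and 0 higher in 129S1/SvImJ, beside 14.2% and 14.4% of all genes. The share that was lower, 14.04%, is close to that background. With limma at an unadjusted p under 0.05, 19 were lower (33.3%, beside 18.9% of all genes) and 2 higher (3.51%, beside 24.5%). With the methods' t-test on the raw scale at p under 0.01, 17 were lower (29.8%, beside 13.5% of all genes) and 0 higher (beside 13.7%). The median difference was -0.07 over the members and 0.06 over all genes, and 42 of 57 members were below 0. Members that fell were Rpl10a, Rpl21, Rpl28, Rpl37a, Rps13, Rps4x, Rps6 and Rps9. Macrophage markers in the same strain had a mean of 8.41 in CR mice and 9.14 in control mice, and their part was not tested. In 4 of the 57 members, all among these 8, every CR mouse lay below every control mouse (7.02%, beside 4.31% of all genes). Rpl28 ran from 12.28 over 12.36 to 12.40 in CR mice and from 12.45 over 12.49 to 12.61 in control mice, a difference of -0.14 (SE 0.039, adjusted p = 0.0090). Rpl21 ran from 12.46 over 12.64 to 12.70 in CR mice and from 12.71 over 12.76 to 12.86 in control mice, a difference of -0.16 (SE 0.048, adjusted p = 0.014). Rpl10a, which had a difference of -0.16 (SE 0.047, adjusted p = 0.016), and Rps4x, with -0.16 (SE 0.041, adjusted p = 0.0055), were the other 2. Rpl37a had the largest difference among the 8, -0.24 (SE 0.057, adjusted p = 0.0031), with 5 of 8 CR mice below every control mouse.

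B6C3F1/J held 6 members that were higher and 2 that were lower, beside 16.5% and 14.4% of all genes. Rpl24, Rpl7l1, Rps12, Rps19, Rps21 and Rps4l rose by 0.12 to 0.33, and Rps14 and Rps4x fell by 0.14 and 0.16. Rps14 ran from 10.25 over 10.38 to 10.51 in CR mice and from 10.44 over 10.49 to 10.62 in control mice, and 7 of 8 CR mice lay below every control mouse. At an adjusted p under 0.05 in place of the unadjusted 0.01, 9 members were higher and 6 lower in this strain, beside 17.8% and 16.4% of all genes. The balance turned with the scaling. Quantile normalization gave 3 higher and 9 lower (16.4% and 14.1% of all genes) with a median member difference of -0.0282, and centring each array on its median gave 11 higher and 0 lower (19.6% and 10.8% of all genes) with a median of 0.0535.

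In C57BL/6J 2 members were higher, Rpl32l and Rpl38, and 0 were lower (9.80% and 7.82% of all genes). The median difference was 0.07 over the members and -0.03 over all genes, and 47 of 57 were above 0. At p under 0.05 in limma 11 were higher and 0 lower (14.8% of all genes in each direction), and the methods' t-test gave 3 higher and 0 lower (10.1% and 8.07% of all genes). These C57BL/6J values use all arrays. Without the 2 C57BL/6J CR mice with high epididymis markers the difference of the mean member level was 0.02, against 0.07 with all mice. Rpl32l and Rpl38 still passed p under 0.01 in limma. In C3H/HeJ 2 were higher, Rpl7l1 and Rps19, and 0 lower (9.25% and 7.43% of all genes), with 4 higher and 5 lower at p under 0.05 (13.6% and 12.9% of all genes) and 2 higher and 0 lower by the methods' t-test (9.32% and 6.36% of all genes). In DBA/2J Rpl32l alone was higher and none lower (3.15% and 2.88% of all genes), with 6 higher and 2 lower at p under 0.05 (8.07% and 7.07% of all genes) and 1 higher and 0 lower by the methods' t-test (3.16% and 2.84% of all genes). The mean of 10 testis germ cell markers in this strain was 6.63 in CR mice, between 5.65 and 8.03, and 5.80 in control mice, between 5.46 and 6.62, and 5 of 8 CR mice lay above every control mouse. The part of these markers in the result was not tested. In CBA/J Rps19 alone was higher and none lower (8.52% and 12.3% of all genes), with 3 higher and 2 lower at p under 0.05 (16.2% and 16.8% of all genes) and 2 higher and 1 lower by the methods' t-test (8.42% and 12.4% of all genes). Without the 2 CBA/J CR mice with high epididymis markers 8 members were lower (13.8% of all genes). These were Rpl10, Rpl10a, Rpl27a, Rpl28, Rps20, Rps28, Rps3a1 and Rps4x, of which Rps28 had the smallest p, with a difference of -0.28 (SE 0.056, adjusted p = 0.0014), and Rps3a1 the largest difference, -0.29 (SE 0.092, adjusted p = 0.026). In BALB/cJ no member passed in limma (0.622% of all genes higher and 0.958% lower), with 2 higher and 0 lower at p under 0.05 (4.14% and 3.38% of all genes) and 2 higher and 0 lower by the methods' t-test (0.537% and 0.597% of all genes). With all arrays no member passed in the same direction in more than 3 strains, and Rps19 was the member that reached 3. Without the epididymis-rich arrays Rps4x also reached 3, lower in 129S1/SvImJ, CBA/J and B6C3F1/J.

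**Figure D3:**
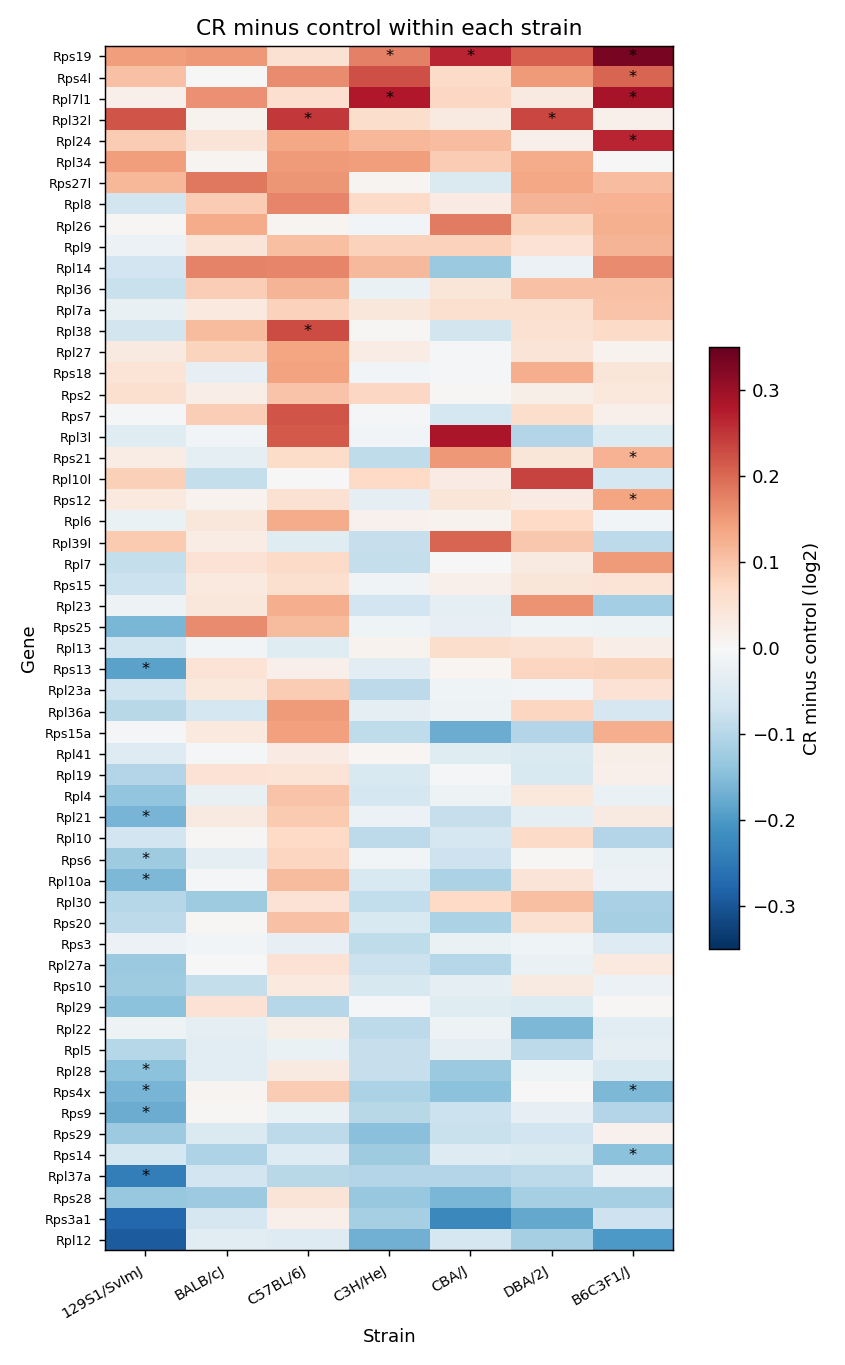
CR minus control (log2, colour) for each gene and strain, genes ordered by their mean over strains, with a star at p under 0.01. The 129S1/SvImJ column holds 8 stars, all lower, the BALB/cJ column none, and Rps19 at the top holds 3.

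The CR effect differed between strains for few members. The F-test of the difference passed for 3 of 57 (5.26%), beside 19.0% of all genes. They were Rpl38 (adjusted p = 0.016), a large subunit protein whose loss alters the body plan of Tail short mice, Rpl23 (adjusted p = 0.021), which lies where the subunits meet, and Rps4x (adjusted p = 0.045). Next by p were Rps20 and Rpl10a (adjusted p = 0.067 each) and Rps15a (0.084).

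Rpl38 passed p under 0.01 in C57BL/6J and in no other strain. In C57BL/6J it ran from 11.37 over 11.51 to 11.98 in CR mice and from 11.27 over 11.31 to 11.43 in control mice, and 7 of 8 CR mice lay above every control mouse. The difference was 0.23 (SE 0.072, adjusted p = 0.038), and 0.18 (SE 0.051, adjusted p = 0.018) without the 2 CR mice with high epididymis markers. In 129S1/SvImJ and CBA/J the differences were -0.06 each (SE 0.057 and 0.065). Rps4x had differences of -0.16 in both 129S1/SvImJ and B6C3F1/J, against 0.09 in C57BL/6J. In 129S1/SvImJ it ran from 10.52 over 10.58 to 10.65 in CR mice and from 10.66 over 10.74 to 10.82 in control mice, without overlap. In C57BL/6J it ran from 10.71 over 10.81 to 11.30 in CR mice and from 10.59 over 10.79 to 10.86 in control mice, and the value of 11.30 was that of mouse 2. Rpl23 had a difference of 0.16 in DBA/2J (adjusted p = 0.28), of 0.13 in C57BL/6J (adjusted p = 0.24) and of -0.12 in B6C3F1/J (adjusted p = 0.063), none of them past an unadjusted p of 0.01. Its highest value on CR in DBA/2J, 11.46, was that of mouse 3 with the high B cell markers. Without the arrays rich in epididymis markers 7 members passed the F-test (12.3%, beside 25.5% of all genes), the 3 named and Rpl10, Rpl10a, Rps13 and Rps20.

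**Figure D4:**
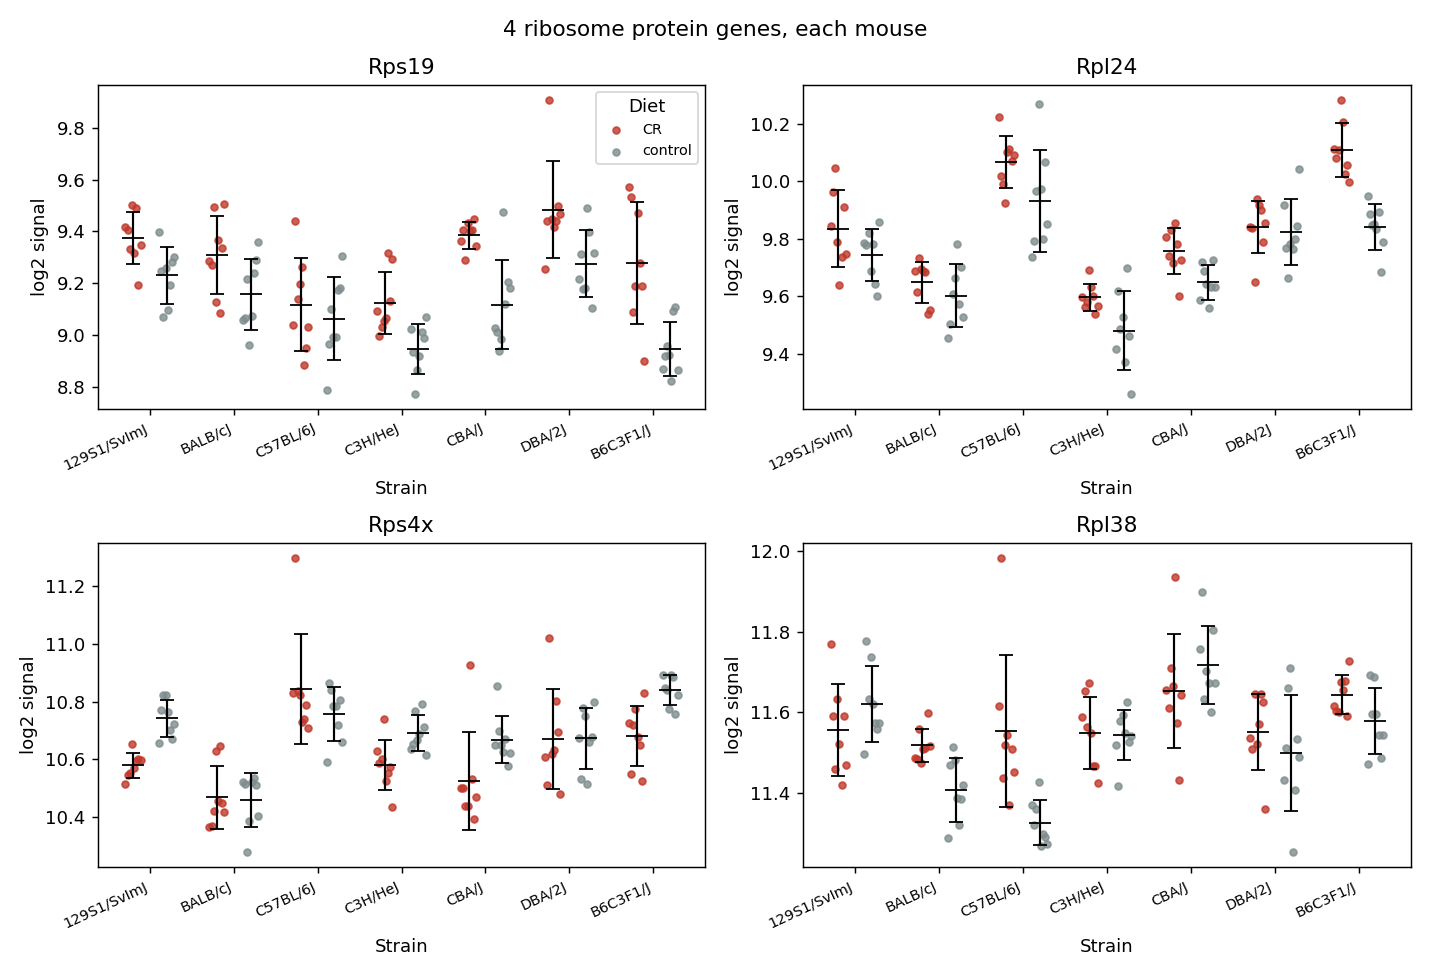
Log2 signal (y axis) of Rps19, Rpl24, Rps4x and Rpl38 in each mouse, by strain and diet (CR red, control grey), with group mean and SD (n = 8). Rpl24 in B6C3F1/J and Rps4x in 129S1/SvImJ have no overlap between diets, and single CR mice of C57BL/6J stand at 11.30 for Rps4x and 11.98 for Rpl38.

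Most members differed between strains under control feeding. The F-test between the 7 control groups passed for 49 of 57 members (86.0%), beside 56.6% of all genes. The gap between the highest and the lowest strain had a median of 0.31, between 0.092 and 0.995, and for 56 of 57 members it was larger than the size of the CR effect, although a gap over 7 groups is by construction wider than a single difference. Rpl7l1 was the exception, with a gap of 0.10 and a CR effect of 0.13. DBA/2J was highest for 19 members and BALB/cJ lowest for 22. Control mice of BALB/cJ also received a larger ration, so strain and ration cannot be told apart for BALB/cJ.

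Rps2, a small subunit protein at the mRNA entry, had the smallest p. Its control mean was 12.32 ± 0.03 in C57BL/6J and 12.23 ± 0.06 in B6C3F1/J, and the lowest were 11.86 ± 0.06 in 129S1/SvImJ and 11.72 ± 0.09 in DBA/2J (SD, n = 8 each here and below). BALB/cJ, CBA/J and C3H/HeJ lay between at 12.17, 12.17 and 12.13, and did not differ beyond their spread. Rpl34 was lowest in 129S1/SvImJ at 8.94 ± 0.11 and highest in BALB/cJ at 9.68 ± 0.12, with CBA/J beside it at 9.67 ± 0.18. Rps13, a small subunit protein, was highest in 129S1/SvImJ at 9.33 ± 0.06, and the other strains lay between 8.69 and 8.94. Rpl4, which lines the peptide exit tunnel, was lowest in the same strain at 9.36 ± 0.17, with the others between 9.74 and 9.90. One strain thus held the highest Rps13 and the lowest Rpl4. Rps3a1 had the widest gap, with 8.78 ± 0.27 in 129S1/SvImJ and 7.78 ± 0.27 in C57BL/6J, and Rpl26, at the end of that tunnel, had 8.99 ± 0.08 in 129S1/SvImJ and 8.30 ± 0.14 in BALB/cJ.

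In the hybrid B6C3F1/J the control mean lay between those of C57BL/6J and C3H/HeJ for 21 of 57 members (36.8%), compared with 43.1% of all genes. Rpl26 was 8.73 in the hybrid, 8.96 in C57BL/6J and 8.51 in C3H/HeJ. Rps3a1 was 8.22 in the hybrid, 7.78 in C57BL/6J and 8.46 in C3H/HeJ. Rps13 lay above both parent strains, at 8.86 in the hybrid. A base that differs between strains under a probe changes its signal, and this was not tested.

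**Figure D5:**
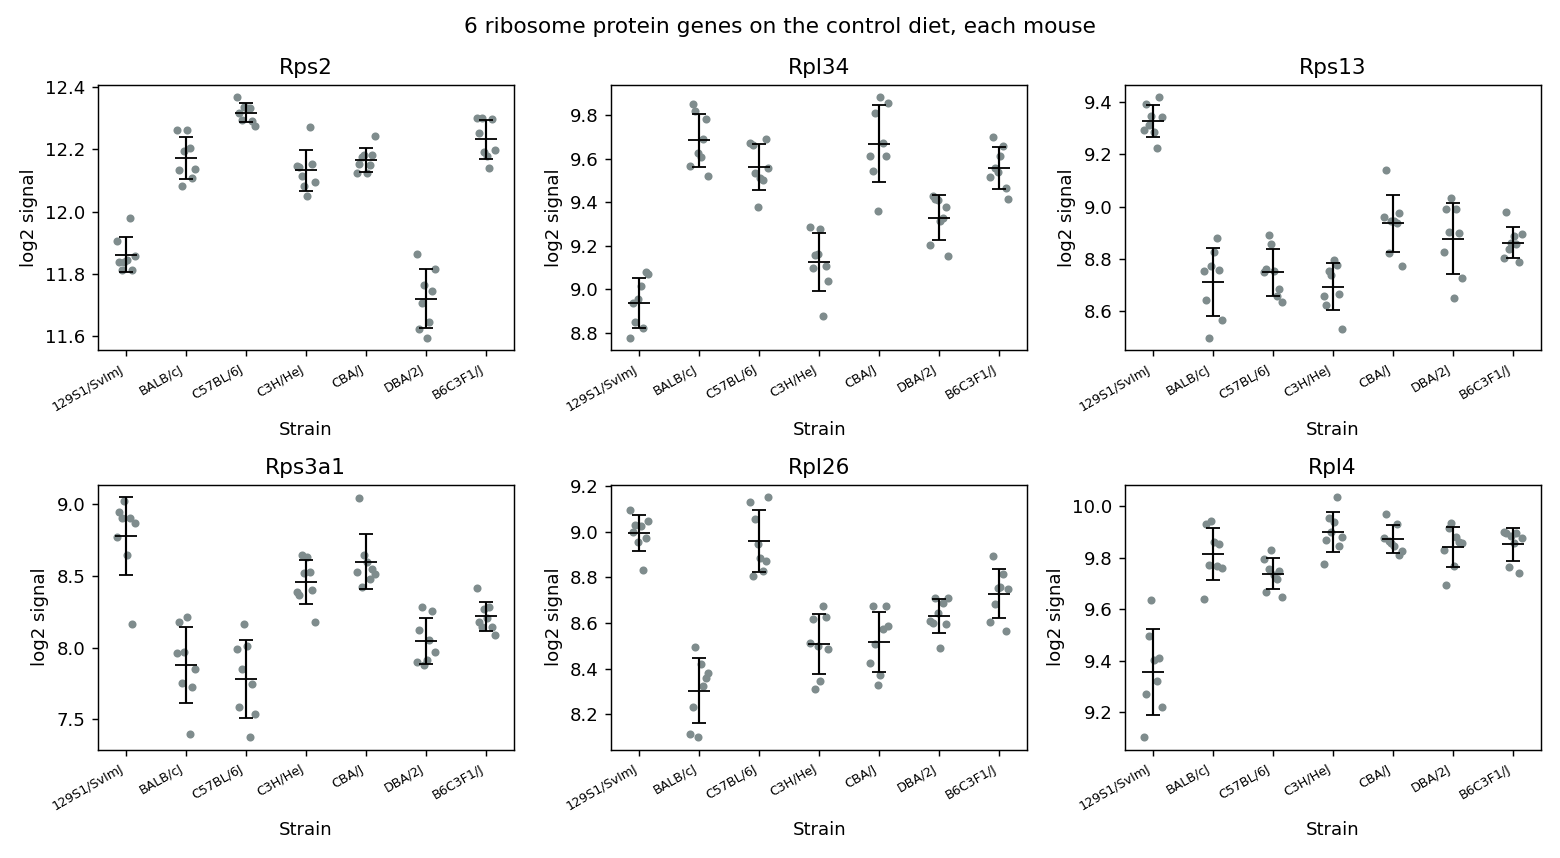
Log2 signal (y axis) of 6 genes in each control mouse by strain, with group mean and SD (n = 8). Rps13 is high and Rpl4 low in 129S1/SvImJ, and Rps2 spans 11.72 in DBA/2J to 12.32 in C57BL/6J.

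Most members varied together from mouse to mouse, and several of those that rose on CR did not. After the mean of each group was removed, the median correlation over the 1596 pairs of members across the 112 mice was 0.31, and it was highest for Rps4x and Rps20 (0.87). Array quality and tissue makeup are shared by all members of an array. The 112 include mouse 2 of the C57BL/6J CR group and mouse 5 of the CBA/J CR group, both rich in epididymis markers. Their mean member levels were 10.32 and 10.30, and their part in the correlations was not tested. Of the 57, 37 correlated above 0.5 with the mean of the others and 9 below 0.2. The 9 were Rpl39l, Rpl7l1, Rps4l, Rps27l, Rpl10l, Rps19, Rpl34, Rps2 and Rpl12, and 5 of the 8 members with the largest rise were among them. For Rps19 the correlation was 0.03 and for Rpl7l1 it was -0.16. Neither the median correlation nor these shares were counted for all genes, so they need not be particular to the members. The median SD within groups was 0.12 for members and 0.18 for all genes.

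Several members had more than 1 probe set, 207 in all for the 57. Of the 36 such members, 28 had the same sign of the across-strain difference in every probe set. Some probe sets of a gene held identical values, such as all 3 of Rpl41 and several of Rps12. Their agreement is therefore not that of separate measurements. Signs differed for Rpl13, Rpl21, Rpl23, Rpl23a, Rpl36a, Rpl7, Rps15 and Rps21, with all their differences between -0.06 and 0.04. Among these only a second Rpl23 probe set passed the test, at -0.06, and no member was called in both directions. The choice of the brightest probe set decided some calls. Rpl36 was higher in 8 of 9 probe sets and Rps18 in 5 of 7, but their brightest did not pass (adjusted p = 0.055 and 0.10 in limma). Rpl7a was counted as higher with 1 of 3 probe sets past the test, and Rps29 as lower with 2 of 4. For Rpl9 all 8 probe sets were higher and for Rps28 all 7 were lower. Rps12 had the most probe sets, 14.

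Of the ribosome components outside the naming rule, 1 of 5 measured passed the across-strain test (21.9% of all genes rose and 22.0% fell). Rpsa, the laminin receptor protein of the small subunit, rose by 0.11 (SE 0.025, adjusted p = 1.6e-04) with 7 of 7 strains positive. The stalk proteins Rplp0 (0.03, adjusted p = 0.44), Rplp1 (-0.04, adjusted p = 0.16) and Rplp2 (0.01, adjusted p = 0.83) and Fau (-0.03, adjusted p = 0.25), which carries Rps30 fused to a ubiquitin-like protein, did not pass.

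Among the factors that act on ribosomes, initiation factors had the highest share past the across-strain test. For all lists here the share of all genes was 21.9% higher and 22.0% lower, with a median difference of 0.0076. Of 34 initiation factors measured, 21 rose and 6 fell, with a median difference of 0.10. Eif6, which keeps free large subunits from joining, rose by 0.22 (SE 0.020, adjusted p = 1.5e-18). Eif1ax, which helps the small subunit scan the mRNA, rose by 0.30 (SE 0.033, adjusted p = 1.9e-13), and Eif5a by 0.30 (SE 0.034, adjusted p = 3.6e-13). Of 12 elongation and termination factors 3 rose and 3 fell, and Etf1, which recognises stop codons, rose by 0.22 (SE 0.035, adjusted p = 5.0e-08). Of 65 ribosome biogenesis factors 22 rose and 14 fell, with a median of 0.02, and those named next were picked for their smallest p. Nhp2, of the particles that pseudouridylate rRNA, and Pno1, which assembles the small subunit, rose by 0.36 each (SE 0.027 and 0.036), and Bop1, which assembles the large one, by 0.22 (SE 0.024). Of 15 genes of the RNA polymerase I machinery 3 rose and 4 fell, and Polr1d rose by 0.32 (SE 0.033, adjusted p = 7.5e-15). The difference between these lists and the members was not tested.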

How the data were processed

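The authors deposited a log2 signal for every probe set, computed in Affymetrix Expression Console by RMA-Sketch at the gene level (background correction, normalization between arrays, summary of probes). The version, and whether all strains were normalized in 1 run, are not given in the sources used here. Of 35556 probe sets, 21789 carried 1 gene symbol in the platform annotation, and the brightest per gene was kept, which gave 19938 genes.

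CR was compared with control by limma 3.58.1 in R 4.3.3 on the log2 values. The across-strain effect was the mean of 7 differences in 1 model of 14 groups, with Benjamini-Hochberg adjustment over all genes. The same model gave F-tests for differences of the CR effect between strains and between control groups. Each strain was also fitted alone (16 arrays, unadjusted p under 0.01, as in the study's methods). Intervals are 95%. The code was tested on simulated data. The number of arrays limits the precision.

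Members and lists were chosen with earlier results of these data known. Members named are the 8 largest increases and decreases past the threshold, paralogs with their parents, the 6 smallest p for each strain comparison, members with probe sets of differing sign, the 3 brightest and the 3 dimmest. Members called in 1 strain, those called without the epididymis-rich arrays and those of low correlation were named after their values were seen. Of the lists, up to 3 genes of smallest p are named. Further lists hold markers of T cells (of 10 measured, 1 rose and 2 fell), B cells (0 of 8 passed), endothelium (3 of 9 fell), fibroblasts (7 of 9 fell), adipocytes (2 of 9 rose, 3 fell), epididymis (4 of 21 rose), testis germ cells (7 of 10 rose) and red blood cells (0 of 3 passed). Of all genes, 21.9% rose and 22.0% fell. Settings varied were scaling, the rule for several probe sets, dim genes, the test, arrays and strains included, and the replicate number as a block. Figures were drawn with matplotlib 3.10.9.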

Additional observations from a re-analysis of the deposited data

Results flagged for a closer look

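In groups of 8 mice, a mouse far from the others (gap to its neighbour over the range of the group above Dixon's limit) was found in 5 of 58 groups tested. The 58 were the mean member level in the 14 groups, and members past p under 0.01 in limma, in both diets of that strain. They share mice and were partly picked by p, so the 1 in 20 that chance gives in independent groups does not apply directly. The mean member level of mouse 2 of the C57BL/6J CR group was 10.32, and the other 7 lay between 9.95 and 10.03. That of mouse 5 of the CBA/J CR group was 10.30, and the others lay between 9.87 and 9.98. Both arrays had high epididymis markers. That of mouse 4 of the C3H/HeJ CR group was 10.01, and the others lay between 9.85 and 9.92. That of mouse 2 of the CBA/J control group was 10.11, and the others lay between 9.94 and 10.02. Rpl38 was 11.98 in mouse 2 of the C57BL/6J CR group, and the others lay between 11.37 and 11.62.

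By the F-test in limma, strains differed in the CR effect on Rpl38 (adjusted p = 0.016), Rpl23 (adjusted p = 0.021) and Rps4x (adjusted p = 0.045).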

How the results depend on the processing

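The across-strain counts (14 higher, 9 lower) became 9 and 16 with quantile normalization, 8 and 20 without the arrays that stood apart, and 18 lower without the epididymis-rich arrays, a setting chosen after the data were seen. The 3 members whose CR effect differed between strains became 8 with each array centred on its median, 1 with quantile normalization, 5 without the arrays that stood apart, 7 without the epididymis-rich arrays and 5 among genes at or above the median signal. The share of all genes past this F-test moved too, from 19.0% with all arrays to 25.5% without the epididymis-rich arrays. It was not counted in the other settings, so a changed count need not be particular to the members. The 49 members that differed between control groups stayed within 1.5 times in each setting run. Leaving out the arrays that stood apart leaves 3 CR and 2 control mice in DBA/2J and 3 CR mice in CBA/J. That set was defined after subtraction of group means that included the extreme mice.

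Within strains (12 higher and 10 lower, summed over strains), median centring gave 9 higher in C57BL/6J, 11 higher and 0 lower in B6C3F1/J and 24 higher in sum. It gave a median difference of 0.0535 and a mean member difference of 0.0594 in B6C3F1/J. Quantile normalization gave 1 higher in C57BL/6J, 1 higher and 1 lower in C3H/HeJ, 3 higher and 1 lower in CBA/J, 3 higher and 9 lower in B6C3F1/J and 22 lower in sum, with a B6C3F1/J median of -0.0282, and of -0.0174 relative to all genes. The mean of all probe sets gave 1 lower in C3H/HeJ. Leaving out the arrays that stood apart gave 1 higher and 1 lower in C57BL/6J, 0 higher and 6 lower in CBA/J, 0 higher in DBA/2J, 7 lower in B6C3F1/J and 22 lower in sum, and the DBA/2J median relative to all genes was -0.0552. Without lymphocyte-rich arrays, also chosen after the data were seen, 2 were higher in DBA/2J. Without epididymis-rich arrays 8 were lower in CBA/J, 2 higher in DBA/2J and 18 lower in sum. Genes at or above the median signal gave 4 lower in B6C3F1/J, and so did trend and robust variance. The methods' t-test on the raw scale, at their threshold, gave 17 lower in 129S1/SvImJ, 2 higher in BALB/cJ, 2 higher and 1 lower in CBA/J, 6 lower in B6C3F1/J, and 19 higher and 24 lower in sum. An adjusted p under 0.05 gave 0 higher in DBA/2J, 6 lower in B6C3F1/J and 16 lower in sum. With 1 model of all groups there were 1 higher in 129S1/SvImJ, 1 higher in BALB/cJ, 7 higher in C57BL/6J, 1 lower in CBA/J, 3 higher in DBA/2J, 1 lower in B6C3F1/J and 19 higher in sum. Where the text gives no share of all genes for a setting, that share was not counted. A changed count in such a setting need not be particular to the members. The 16 members with the largest called differences across strains kept their direction in each across-strain setting run. Without the epididymis-rich arrays 5 members that passed in neither fit changed sign, Rpl13, Rpl23, Rpl3l, Rps13 and Rps25.

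The labels number the biological replicates and do not say that equal numbers are paired, so the main tests did not pair them. Same-numbered CR and control mice correlated between -0.36 and 0.55, above 0.1 in 18 of 56 pairs, and 10 of 56 CR mice correlated best with their own number. With the replicate block 1 member was lower in B6C3F1/J, Rpl23 had an adjusted p of 0.050 for the difference between strains, and the other counts stayed within 1.5 times.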
